A study of Mus musculus with 6 samples.

Results

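*Nudcd2* and 9 genes of the LIS1-dynein pathway were followed in primary mouse neurons. The 10 genes are the 4 members of the NudC family (*Nudc*, *Nudcd1*, *Nudcd2* and *Nudcd3*), the LIS1 gene *Pafah1b1* with *Nde1* and *Ndel1*, the motor subunits *Dync1h1* and *Dync1i1*, and *Dctn1*. All 10 were found by symbol among the 50508 symbols of the data, and 10 of the 19504 genes with a value above 0 in at least 1 library were these. *Nudcd2* is a predicted off-target of the guide and was chosen by its lower values in the treated neurons of this same comparison, so its own change is given as a description without a test. The study reported no significant change of *Nudcd2*, either in its own transcriptome analysis of the treated neurons or by quantitative RT-PCR. The other 9 genes, called partners here, belong to the same pathway and were chosen with earlier results of these data known, and the question put to the data was whether they move with it.

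Neurons were isolated from newborn C57Bl/6J pups and transduced with a lentivirus. In both groups the virus carried a nuclease-dead Cas9 fused to the activator VP160 behind the ubiquitous Ef1alpha promoter, with a guide RNA behind the U6 promoter, and the groups differed in the guide. The 3 control libraries received a guide against bacterial *LacZ* (sgLacZ) and the 3 treated libraries a guide against the *Kcna1* promoter (sgKcna1, the guide sg19). The labels call the cells hippocampal while the study's methods describe cortical neurons and give 2 different culture times, and neither says of these libraries whether the 3 of a group came from separate cultures, although the methods speak of independent repetitions for the study in general, so that the p-values measure the spread between these libraries, which may be technical.

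Cytoplasmic dynein is the motor that carries cargo towards the minus end of microtubules, and in neurons it moves nuclei during migration and returns endosomes and survival signals along the axon to the cell body. It works with dynactin, which joins it to cargo, and with LIS1, which binds the motor heavy chain and helps the complex assemble. NDE1 and NDEL1 bring LIS1 to dynein. The NudC proteins are small co-chaperones of HSP90 that share a CS domain, and NUDCD2 and NUDC are known to stabilise LIS1. Loss of a copy of the human LIS1 gene causes lissencephaly, a failure of neuronal migration that leaves the cortex smooth.

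Each library holds 1 whole number per gene, here taken to be RPM (reads scaled to a common library total) rounded by the authors, since the sums ran from 999047 to 999717. The number of reads is unknown and limits the precision most at low values, where rounding alone is large. *Kcna1*, the targeted gene, was listed at 16 in every sgLacZ library and at 68, 47 and 65 in the sgKcna1 libraries. Tested with limma on log2(value + 1), with Benjamini-Hochberg adjustment over all genes, 226 of 19504 genes (1.16%) had an adjusted p under 0.05, 68 higher and 158 lower in sgKcna1. With median-of-ratios rescaling the split was 963 higher and 758 lower. Another 947 genes had an adjusted p from 0.05 to 0.06, so that many genes stood close to the threshold. sgLacZ replicate 3 lay nearest to the sgKcna1 mean among the controls in 59.5% of the 8050 genes with a mean of at least 10, against 16.1% and 17.1% for the other controls. Without that library 2711 genes passed.

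The sequence of sg19 and of the site that resembles it in *Nudcd2* are shown to place the gene as an off-target. Capitals mark the 4 positions at which they differ, counted from 1 at the 5′ end of the guide and written as guide base, position and site base, A1C, G2T, T10A and A14C.
sg19: AGtcaatgaTcacAtcctcc
Nudcd2 site: CTtcaatgaAcacCtcctcc

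The site lies on the minus strand of NCBIM37 (mm9) at chr11:40547542-40547561 and is followed by the PAM AGG. *Nudcd2* (ENSMUSG00000020328.4) lies on the plus strand at chr11:40547169-40553548, and the site is in coding exon 1, 373 bp after the first transcription start in GENCODE vM1 and 94 bp after the start of a second coding transcript. A shorter, non-coding transcript starts 146 bp beyond it. The study kept predicted sites that lay in the 500 bp upstream of annotated starts. That this site is the one it counted for *Nudcd2* is assumed here. On the plus strand, with the site and its PAM in capitals, chr11:40547502-40547601 reads as follows.
Nudcd2 exon 1: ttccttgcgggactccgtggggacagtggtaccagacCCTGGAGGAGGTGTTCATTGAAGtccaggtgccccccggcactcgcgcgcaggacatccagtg
Among 22225 protein-coding genes, 7 (0.0315%) had a site with an NGG PAM and at most 4 mismatches within 500 bp on either side of a start. *Nudcd2* and *Kcna1* are among them, and 0 of the 9 partners had such a site there, also with NAG or NGA as PAM.

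**Figure D1:**
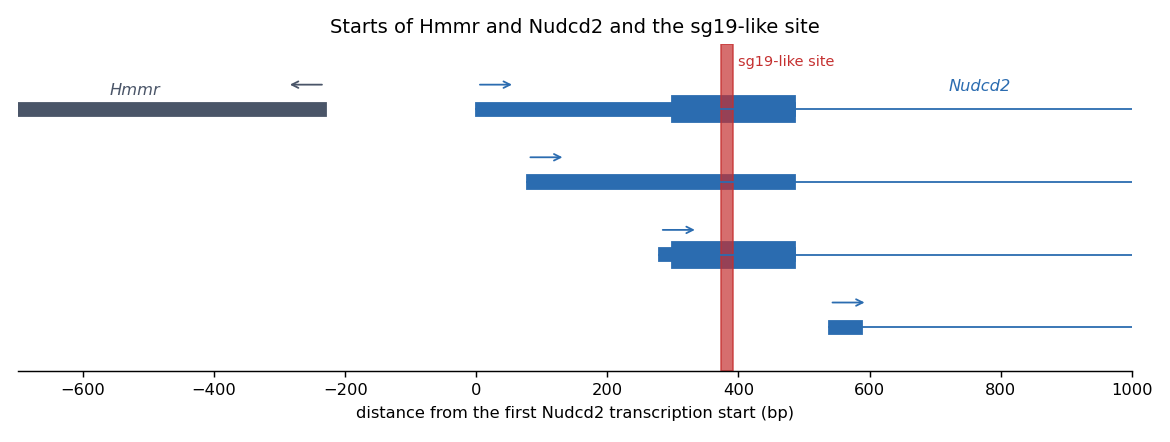
Map of the region around the *Nudcd2* starts in NCBIM37, with the distance from the first *Nudcd2* transcription start in bp on the x axis. Blue bars are *Nudcd2* exons (tall where coding), the grey bar is the span of *Hmmr*, arrows are transcription starts with their direction, and the red band is the site resembling sg19, which lies 373 bp into the gene.

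*Nudcd2* was listed at 26, 16 and 15 in the sgLacZ libraries and at 10, 12 and 8 in the sgKcna1 libraries. Every sgKcna1 library was below every sgLacZ library, and the highest control value, from replicate 1, stood well above the others. The sgLacZ mean was 19 ± 6.08 (SD, n = 3), that of sgKcna1 was 10 ± 2 (SD, n = 3), and the estimate of the change was -0.84 on the log2 scale with a standard error of 0.25. Since *Nudcd2* was chosen for this difference, no p is given. Groups that do not overlap with lower values in sgKcna1 were seen in 13.3% of all genes tested and in 23.9% of those with a mean of at least 10, to which *Nudcd2* belongs. A change as low as that of *Nudcd2* or lower was found in 469 of the 8050 genes with a mean of at least 10 (5.83%). Leaving out sgLacZ replicate 1 brought the log2 fold change to -0.60, the weakest of all settings, and leaving out sgLacZ replicate 2 or 3 or any sgKcna1 library kept it at or below -0.70.

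The genes around *Nudcd2* were read in the same way. *Hmmr*, which encodes a spindle-associated hyaluronan receptor of dividing cells, starts 230 bp from *Nudcd2* in the opposite direction, 603 bp from the site. It was listed at 5, 4 and 1 in sgLacZ and at 1, 2 and 1 in sgKcna1, values too low to compare beyond rounding, and the groups overlapped (log2 fold change -0.77, standard error 0.46, adjusted p = 0.35 from limma). *Mat2b*, the regulatory subunit of methionine adenosyltransferase, lies 38464 bp away and was listed at 29, 23 and 23 against 18, 19 and 16. Its groups did not overlap, and its log2 fold change of -0.47 (standard error 0.15) did not pass (adjusted p = 0.12 from limma). *Ccng1*, which encodes cyclin G1, on the other side at 8506 bp, was listed at 50, 30 and 33 against 27, 31 and 27, and the groups overlapped (log2 fold change -0.37, adjusted p = 0.31 from limma). Without sgLacZ replicate 1, the library with the value of 50, the log2 fold change was -0.15. The pseudogene Hmgb1-ps1 was listed at 0 in all 6 libraries. Thus 0 of the 3 neighbours with values passed the threshold of limma, and 1, *Mat2b*, had an unadjusted p under 0.05, as did 39.7% of all genes with a mean of at least 10.

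The stretch between *Hmmr* and *Nudcd2* is shown because it holds the promoters of both genes, which start in opposite directions. In GRCm38.p6, whose coordinates differ from those of NCBIM37, the bases between both genes of RefSeq are chr11:40733465-40733644, given on the plus strand with CCAAT in capitals.
Hmmr-Nudcd2 promoter: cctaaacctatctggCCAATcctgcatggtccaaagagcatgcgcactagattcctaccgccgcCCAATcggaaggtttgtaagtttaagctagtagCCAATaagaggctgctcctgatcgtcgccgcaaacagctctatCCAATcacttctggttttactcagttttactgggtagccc
CCAAT was searched on both strands, as CCAAT and ATTGG, after the sequence had been seen, and occurs 4 times in these 180 bases. Of 32851 RefSeq promoter windows cut to the same 180 positions, 27.6% hold it at least once and 0.381% at least 4 times. A match is a run of letters and not a measured binding site. In the full 300 base windows, which matched 9 of the 10 genes, *Nudcd2* held 5 copies, *Nde1* 2 and *Nudc* 1, where 37.4% of all windows held at least 1.

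**Figure D2:**
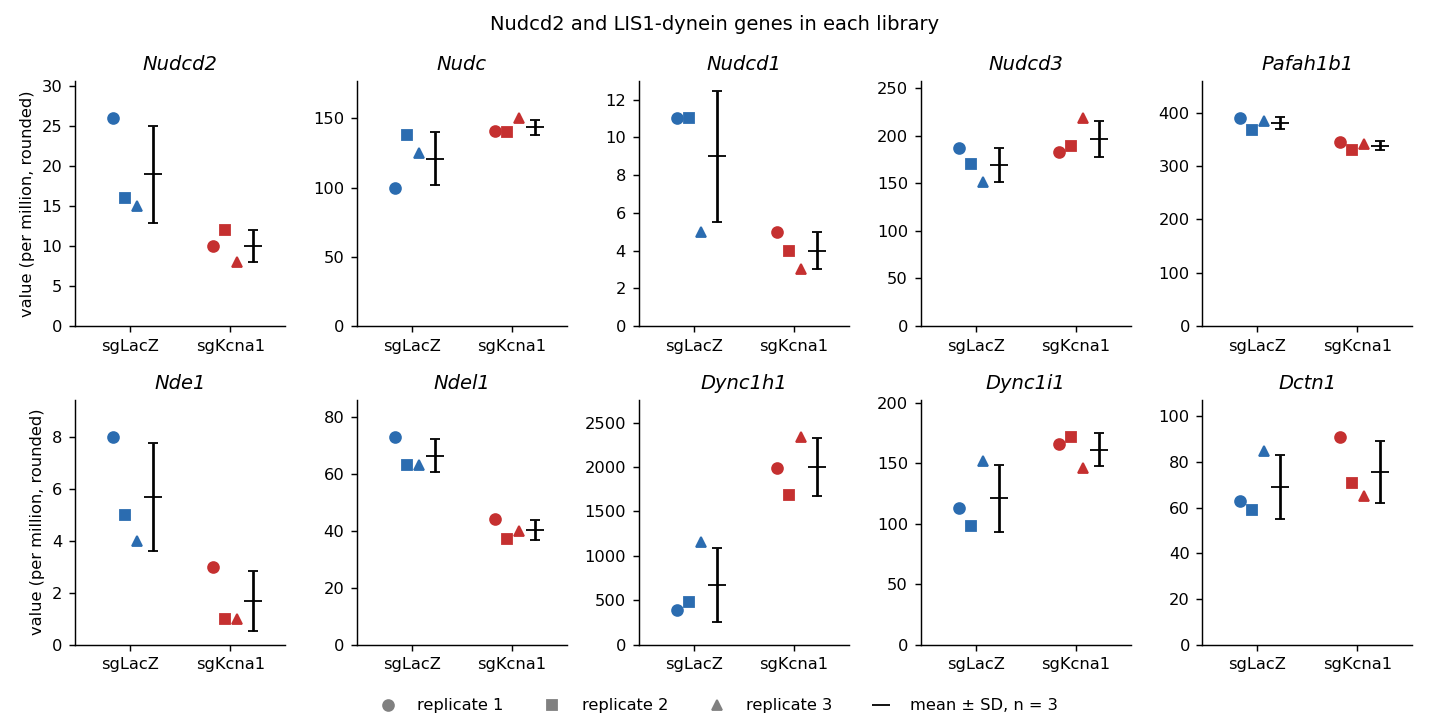
Values of the 10 genes in each library, as RPM rounded to whole numbers, with blue points for sgLacZ, red points for sgKcna1, a symbol for each replicate number and bars for mean ± SD (n = 3). Each panel has its own scale from 0, and *Ndel1*, *Pafah1b1*, *Nde1* and *Nudcd2* are lower in every sgKcna1 library while *Dync1h1* and *Nudc* are higher in every one.

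The rest of the NudC family did not share one direction. *Nudc*, the founding member, which binds LIS1 and HSP90, was listed at 100, 138 and 125 in sgLacZ and at 141, 140 and 150 in sgKcna1. Its groups did not overlap, sgLacZ replicate 1 was the low value, and the log2 fold change of 0.26 (standard error 0.13, 95% interval -0.05 to 0.57) did not pass (adjusted p = 0.27 from limma). Without that library the log2 fold change was 0.13. *Nudcd3*, which is known to bind the dynein intermediate chain, was listed at 187, 170 and 151 against 183, 189 and 218, with overlapping groups and an estimate of 0.22 (log2, standard error 0.12, 95% interval -0.06 to 0.49, adjusted p = 0.30 from limma). That estimate ran from 0.14 without sgLacZ replicate 3 to 0.33 with upper-quartile factors. *Nudcd1*, a family member with a longer and more distant sequence, was listed at 11, 11 and 5 against 5, 4 and 3. The groups met at 5, and the log2 fold change of -0.95 (standard error 0.34) did not pass (adjusted p = 0.14 from limma), though it did without sgLacZ replicate 3 (adjusted p = 0.033) and with a robust variance (0.029). So the low-level pair *Nudcd1* and *Nudcd2* had negative estimates and the abundant pair positive ones, and the family together summed to 324, 335 and 296 in sgLacZ and to 339, 345 and 379 in sgKcna1. *Nudcd2* made up 8.02%, 4.78% and 5.07% of the family sum in sgLacZ and 2.95%, 3.48% and 2.11% in sgKcna1, a share that contains the gene chosen for its values.

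LIS1 and its NDE partners all had negative estimates, of very different size. *Pafah1b1* was listed at 389, 368 and 384 in sgLacZ and at 344, 329 and 341 in sgKcna1. The groups did not overlap, the mean was 11.1% lower, and the log2 fold change of -0.17 (standard error 0.08, 95% interval -0.35 to 0.01) did not pass (adjusted p = 0.23 from limma). Rescaling brought the log2 fold change to -0.08 with median-of-ratios factors and to -0.05 with upper-quartile factors. *Ndel1*, the NDE protein that predominates in postmitotic neurons, was listed at 73, 63 and 63 against 44, 37 and 40. Its groups lay far apart compared with their spread, at 66.3 ± 5.77 (SD, n = 3) in sgLacZ and 40.3 ± 3.51 (SD, n = 3) in sgKcna1. It fell by 0.70 on the log2 scale (standard error 0.12, adjusted p = 0.0497 from limma) and was the only partner past the threshold, as the 225th smallest p of 19504. The direction was the same in all 16 other settings, from -0.77 to -0.59, but 8 of them, among them each library left out except sgLacZ replicate 3, put the adjusted p between 0.051 and 0.14. *Nde1*, the NDE protein of dividing progenitors, was listed at 8, 5 and 4 against 3, 1 and 1, without overlap. At these values rounding is a large part of each number, and the log2 fold change of -1.36 (standard error 0.38) had an adjusted p of 0.089 from limma. The adjusted p was under 0.05 with a robust variance (0.0063) and without the gene Gm42418 (0.049).

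The level of *Ndel1* per 100 of *Pafah1b1* was 18.8, 17.1 and 16.4 in sgLacZ and 12.8, 11.2 and 11.7 in sgKcna1. The same ratio for *Nudcd2* was 6.68, 4.35 and 3.91 against 2.91, 3.65 and 2.35. Both ratios were lower in every sgKcna1 library than in any sgLacZ library, the second one for a gene chosen for its values.

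The motor genes had estimates of the opposite sign. *Dync1h1*, the heavy chain that holds the motor domain and the binding site of LIS1, was listed at 387, 482 and 1151 in sgLacZ and at 1985, 1686 and 2341 in sgKcna1. The groups did not overlap, and sgLacZ replicate 3 stood between the other controls and the treated libraries. The sgLacZ mean was 673 ± 416 (SD, n = 3), the sgKcna1 mean of 2004 ± 328 (SD, n = 3) was 2.98 times as high, and the log2 fold change of 1.73 (standard error 0.38) was the 81st highest of all genes tested. It did not pass the threshold (adjusted p = 0.056 from limma). It passed in 6 of the 16 other settings, with adjusted p from 0.0010 to 0.040 from limma, and in the other 10 the adjusted p reached 0.23, without sgLacZ replicate 2. Without sgLacZ replicate 3 the log2 fold change was 2.20 and passed (adjusted p = 0.017). *Dync1i1*, the intermediate chain found mainly in neurons, which joins the heavy chain to dynactin, was listed at 113, 98 and 152 against 166, 172 and 146. Here sgLacZ replicate 3 lay within the treated range, and the log2 fold change of 0.43 (standard error 0.17, adjusted p = 0.18 from limma) passed only without that library (0.034), with a robust variance (0.023) and for genes with a mean of at least 10 (0.048). *Dctn1*, the p150Glued subunit of dynactin that grips microtubules, was listed at 63, 59 and 85 against 91, 71 and 65. The groups overlapped, and the estimate was 0.13 (log2, standard error 0.18, 95% interval -0.30 to 0.57, adjusted p = 0.63 from limma). The value of *Dync1h1* per *Dync1i1* was 3.42, 4.92 and 7.57 in sgLacZ and 11.96, 9.80 and 16.03 in sgKcna1, without overlap, a ratio that was not tested.

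**Figure D3:**
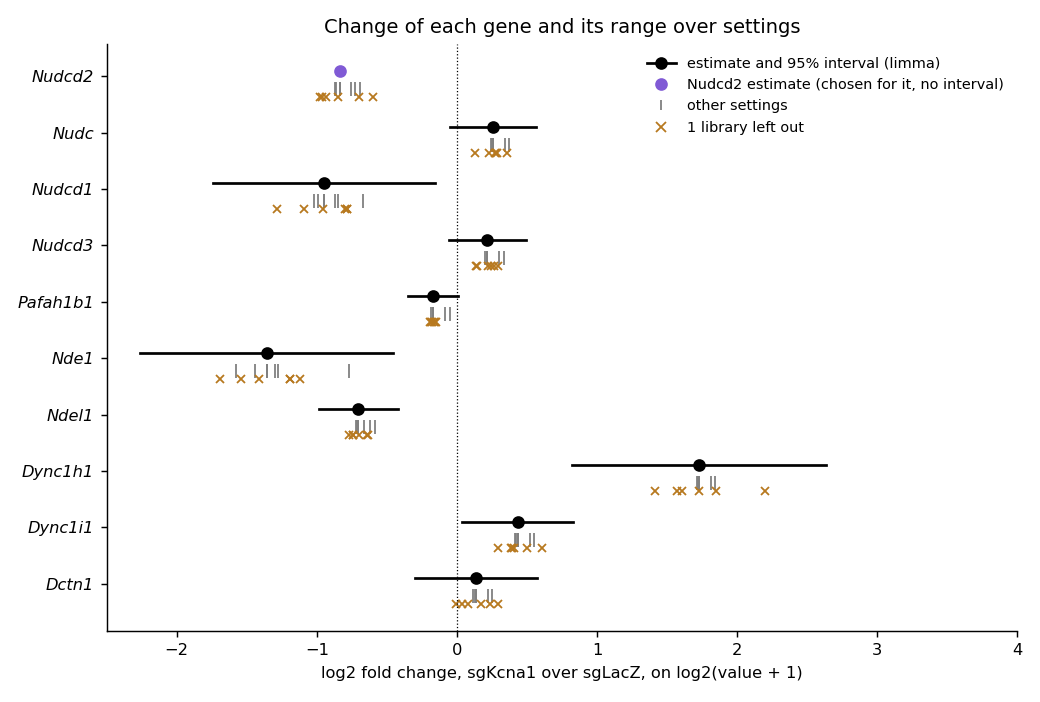
Log2 fold change of sgKcna1 over sgLacZ for each gene on the log2(value + 1) scale, with black points and lines for the limma estimate and its 95% interval, a purple point for *Nudcd2*, grey ticks for other settings and brown crosses for fits with 1 library left out. *Nudcd2*, *Nudcd1*, *Nde1* and *Ndel1* stay below 0 in every setting and *Dync1h1* stays above 1.41, while *Dctn1* reaches 0.

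Counted together, and given that they were not chosen blind to these data, 1 of the 9 partners passed, lower in sgKcna1 (11.1%), where 1.16% of all genes tested (0.349% higher, 0.81% lower) and 2.1% of those with a mean of at least 10 (0.398% higher, 1.7% lower) did. An unadjusted p under 0.05 was seen for 5 of the 9 partners, against 23.2% of all genes and 39.7% of those with a mean of at least 10. That 1 gene stood at the edge of the threshold, and the count ran from 0 to 4 over the other settings. The estimate was positive for 5 partners and negative for 4. The groups did not overlap for 5 partners, *Nudc* and *Dync1h1* higher and *Pafah1b1*, *Nde1* and *Ndel1* lower, where 22.2% of all genes (8.98% higher, 13.3% lower) and 39.8% of those with a mean of at least 10 (15.9% higher, 23.9% lower) had such groups. The median log2 fold change of the 9 partners was 0.13, against -0.02 over all genes tested and -0.06 over genes with a mean of at least 10. So the partners did not follow *Nudcd2* in one direction. For 6 of the 10 genes, *Nudcd2* included, sgLacZ replicate 3 was the control nearest to the sgKcna1 mean. That is close to the 59.5% given above for genes with a mean of at least 10, which 2 of the 10 do not reach.

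The other subunits of the motor were read from lists of the pathway, which were chosen with earlier results of these data known. Of 12 further dynein subunits, 10 had a value above 0 and 0 passed the threshold of limma, with 4 at an unadjusted p under 0.05, where 23.2% of all genes tested and 39.7% of those with a mean of at least 10 had one. *Dync1li1*, a light intermediate chain that binds cargo adaptors, was listed at 145, 158 and 92 in sgLacZ and at 67, 68 and 61 in sgKcna1. Its groups did not overlap (log2 fold change -0.96, standard error 0.20, adjusted p = 0.056 from limma). The roadblock light chain gene *Dynlrb1* was listed at 141, 120 and 111 against 88, 87 and 79, and its estimate was -0.54 (log2, adjusted p = 0.056 from limma). The light chain genes *Dynlt1a*, *Dynlt1b*, *Dynlt1c* and *Dynlt1f* were listed at 0 or 1, and as near-identical copies they are uncertain, since reads that match several of them may not have been counted. Of the 7 subunits with a mean of at least 10, 5 had negative and 2 positive estimates, with a median of -0.19. One of the positive ones was *Dync1li2*, the other light intermediate chain, which was listed at 228, 214 and 257 against 303, 332 and 289 without overlap.

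Of 11 further dynactin subunits, 1 rose and 1 fell, where 0.349% of all genes tested rose and 0.81% fell (0.398% and 1.7% of those with a mean of at least 10). *Dctn2*, the dynamitin subunit that holds the shoulder of dynactin together, was listed at 179, 186 and 194 in sgLacZ and at 274, 255 and 274 in sgKcna1, with a narrow spread in both groups (log2 fold change 0.52, standard error 0.08, adjusted p = 0.0496 from limma). *Capzb*, the capping protein subunit at the barbed end of the dynactin filament that also caps actin throughout the cell, was listed at 356, 372 and 241 against 142, 123 and 113. It fell by 1.33 on the log2 scale (standard error 0.18, adjusted p = 0.0486 from limma). *Dctn6*, of the pointed end complex, was listed at 47, 44 and 40 against 26, 27 and 15 (log2 fold change -0.96, adjusted p = 0.063 from limma). The median over the list was -0.04. *Dctn2* and *Capzb* did not pass in any of the fits without a library other than sgLacZ replicate 3, as held for every gene tested.

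Among 15 dynein adaptors, which link the motor to its cargo and set it in motion, 1 rose and 0 fell, beside the same shares of all genes, 0.349% and 0.81%. *Rab11fip3*, the adaptor of recycling endosomes, was listed at 24, 20 and 27 in sgLacZ and at 46, 42 and 43 in sgKcna1, and rose by 0.87 on the log2 scale (standard error 0.14, adjusted p = 0.0496 from limma). *Ninl*, a centrosomal adaptor, was listed at 21, 22 and 35 against 38, 34 and 52, where sgLacZ replicate 3 lay inside the treated range (log2 fold change 0.66, adjusted p = 0.15 from limma). Among 11 LIS1 partners and genes of lissencephaly, 0 passed, with 2 at an unadjusted p under 0.05 from limma, against the same 23.2% and 39.7%. *Dcx*, doublecortin, the microtubule protein of migrating neurons, was listed at 958, 961 and 785 against 640, 614 and 491 (log2 fold change -0.63, standard error 0.14, adjusted p = 0.056 from limma). *Katna1*, the severing subunit of katanin, was listed at 15, 15 and 11 against 10 in each sgKcna1 library (log2 fold change -0.40, adjusted p = 0.23 from limma).

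HSP90 and its co-chaperones were included because NudC proteins work with them. Of 12 genes, all with a mean of at least 10, 0 passed and 7 had an unadjusted p under 0.05 from limma, as did 39.7% of all genes at such a mean, and the median log2 fold change was 0.18. *Hspa8*, the constitutive HSC70 chaperone, was listed at 27, 27 and 29 in sgLacZ and at 17, 12 and 11 in sgKcna1 (log2 fold change -1.02, adjusted p = 0.053 from limma), values that are uncertain because the gene has many near-identical pseudogene copies. *Stub1*, the CHIP ubiquitin ligase, was listed at 204, 192 and 318 against 484, 365 and 584 (log2 fold change 1.01, standard error 0.24, adjusted p = 0.061 from limma), again with sgLacZ replicate 3 as the highest control. Of 7 other proteins with a CS domain, the fold that NudC proteins share, 0 passed and 0 had an unadjusted p under 0.05. *Sugt1*, an HSP90 co-chaperone of the kinetochore, was listed at 88, 105 and 112 against 113, 123 and 125 (log2 fold change 0.25, adjusted p = 0.26 from limma), and *Usp19*, a deubiquitinase, had a log2 fold change of -0.19 (adjusted p = 0.48 from limma).

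Kinesins move cargo the other way, and 9 genes of the axonal kinesins were set beside dynein. None of the 9 passed, 5 had an unadjusted p under 0.05 from limma, against the same 39.7%, and the median log2 fold change was 0.28. *Kif3b* was listed at 274, 263 and 429 in sgLacZ and at 541, 479 and 583 in sgKcna1 (log2 fold change 0.76, standard error 0.19, adjusted p = 0.073 from limma). Its motor partner *Kif3a* was listed at 199, 213 and 335 against 390, 341 and 376 (log2 fold change 0.60, adjusted p = 0.12 from limma). In both, as in *Dync1h1*, sgLacZ replicate 3 was well above the other controls. Over all 74 pathway genes with a value above 0, 2 rose and 1 fell (4.05%, against 1.16% of all genes tested and 2.1% of those with a mean of at least 10, as 63 of the 74 have), 35 estimates were positive, 37 negative and 2 at 0, and the median was 0.00.

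**Figure D4:**
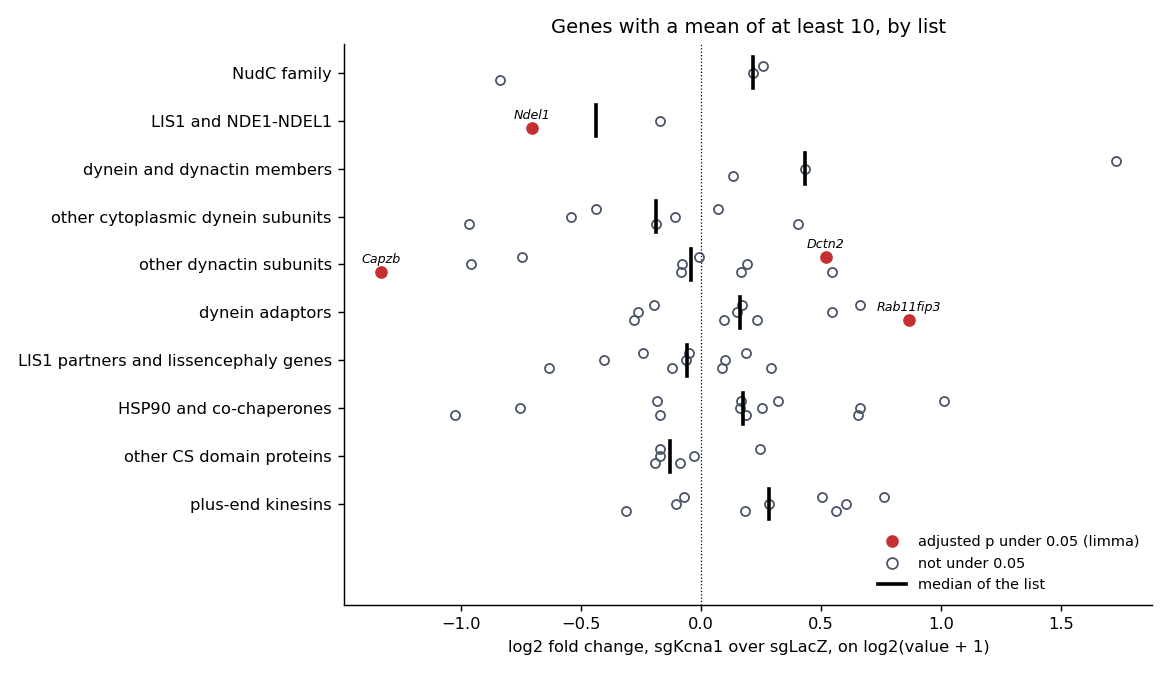
Log2 fold change of sgKcna1 over sgLacZ on the log2(value + 1) scale for genes with a mean of at least 10, by list, with red points for an adjusted p under 0.05 from limma, open points for the others and a black line for the median of the list. *Ndel1*, *Dctn2*, *Capzb* and *Rab11fip3* are the genes past the threshold, and the LIS1 list lies left of 0 while the dynein and dynactin members lie right of it.

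Markers of other cell types differed between the groups as well. *Nde1* belongs to progenitors, and the 8 markers of dividing cells summed to between 121 and 126 in sgLacZ and to between 71 and 75 in sgKcna1. All 8 estimates were negative and the groups did not overlap for 7, where 13.3% of all genes tested and 23.9% of those with a mean of at least 10 had such lower groups, although 0 passed the threshold of limma (7 at an unadjusted p under 0.05). Fewer cells of a type and less RNA per cell cannot be told apart in bulk RNA. Of the 10 astrocyte markers 3 fell (*Aqp4*, *Sox9* and *Aldoc*), with sums of 959 to 1066 against 697 to 735, where 0.81% of all genes tested and 1.7% of those with a mean of at least 10 fell. The groups did not overlap for 6 of the 10, all lower, while *Gfap*, *Aldh1l1* and *Slc4a4* lay between -0.02 and -0.01 on the log2 scale and *S100b* at 0.32, all with overlapping groups. Of the 8 markers of the oligodendrocyte lineage 1 fell (*Olig2*), with sums of 66 to 98 against 40 to 44 and *Mog* at 0 throughout. Of the 7 tested, 6 estimates were negative and 1 positive, that of the myelin gene *Mbp*, which was listed at 3, 3 and 2 against 7, 4 and 7 without overlap. Of the 8 microglia markers 1 rose (*C1qa*), with sums of 23 to 28 against 58 to 78. Of all genes tested 0.349% rose, and of those with a mean of at least 10 0.398% did. Of the 8 estimates 7 were positive and 1 negative, that of *C1qc*, which was listed at 2, 2 and 1 against 1, 2 and 1. The groups of *C1qc*, *Tyrobp* and *Csf1r* overlapped, and only 2 of the 8 markers had a mean of at least 10. The 9 neuron markers summed to 4216 to 4958 against 5341 to 6741, with 0 past the threshold and 5 at an unadjusted p under 0.05 from limma (39.7% of all genes with a mean of at least 10, which all 9 have), 3 estimates positive and 6 negative. That higher sum came from *Tubb3*, a neuronal tubulin, which was listed at 1862, 1752 and 2605 in sgLacZ and at 3855, 3221 and 4591 in sgKcna1 (adjusted p = 0.056 from limma). The other 8 neuron markers summed to 2353 to 2543 against 2120 to 2179, most of it *Map2*, and without both genes the remaining 7 overlapped (711 to 739 against 654 to 737). The neuron markers thus gave no common direction. Leaving out the most abundant gene of each other list, a check chosen after the values were seen, kept the direction of the sums without overlap except for the vascular list, where they then overlapped (9 to 12 against 5 to 10). Without the 2 most abundant genes the oligodendrocyte lineage sums met as well, at 16. The 7 vascular and meningeal markers summed to 14 to 18 against 8 to 13, with 0 past the threshold and 0 at an unadjusted p under 0.05 from limma, and *Cldn5* and *Pecam1* were at 0 or 1 in every library. The part of these cells in the values of *Nudcd2*, *Nde1*, *Ndel1* and *Dync1h1* was not tested.

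**Figure D5:**
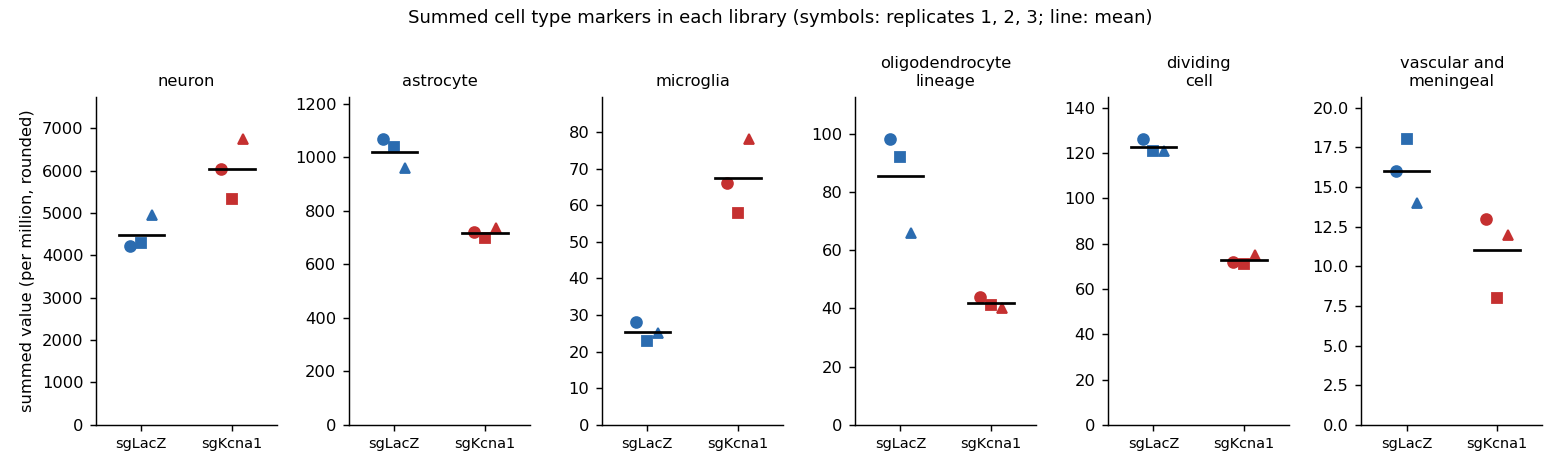
Summed values of 6 lists of cell type markers in each library, as RPM rounded to whole numbers, with blue symbols for sgLacZ, red symbols for sgKcna1, a symbol for each replicate number and a line for the mean. Dividing cell, astrocyte, oligodendrocyte lineage and vascular sums are lower and microglia sums are higher in every sgKcna1 library, with vascular sums of at most 18. The neuron sum is higher through *Tubb3* alone, while the 7 neuron markers other than *Tubb3* and *Map2* overlap (711 to 739 against 654 to 737).

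The levels spanned a wide range. Values come from the 3′ ends of transcripts and are not divided by gene length, so they are compared as they stand. In sgLacZ, *Dync1h1* and *Pafah1b1* (mean 380) were highest and their ranges met. *Nudcd3* (169), *Dync1i1* (121) and *Nudc* (121) followed, where *Dync1i1* and *Nudc* did not differ beyond their spread and *Nudcd3* met *Dync1i1* at its lowest value. *Dctn1* (69) and *Ndel1* (66.3) overlapped, and *Nudcd2* (19), *Nudcd1* (9) and *Nde1* (5.67) were the lowest, the latter pair with overlapping ranges. In sgKcna1 the order was the same, with *Dync1h1* (2004) now clear of *Pafah1b1* (338) and *Dctn1* (75.7) clear of *Ndel1* (40.3).

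The genes whose values over the 6 libraries were most like those of *Nudcd2*, by Pearson's r of log2(value + 1) among 8049 genes with a mean of at least 10, were *Pgam5* (0.997), *Pop7* (0.994), *Mat2a* (0.994), *Wwtr1* (0.993) and its neighbour *Mat2b* (0.993). *Pgam5*, a mitochondrial phosphatase, was listed at 51, 38 and 35 in sgLacZ and at 27, 30 and 22 in sgKcna1. The r was taken across both groups, and *Nudcd2* was chosen for its lower values in sgKcna1, so other genes lower in sgKcna1 score high. With 6 libraries such likeness is also common, and 610 genes had an r of at least 0.9. Shared regulation was not tested.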

How the data were processed

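The authors made QuantSeq 3′ libraries from RNA of 3 sgLacZ and 3 sgKcna1 samples. The study's methods name Bowtie2 on NCBI37/mm9 for them and DESeq2, whereas the submitters' processing notes list STAR 2.7, featureCounts, DESeq2 and mm10, and the annotation used is not given in the sources used here. The values the authors deposited are treated as a score: 1 whole number for each symbol, read as RPM rounded by the authors, of unknown depth. They are not counts, so count models were not used.

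Genes above 0 in at least 1 library were fitted with limma 3.58.1 in R 4.3.3 (lmFit, eBayes with an intensity trend, two-sided) on log2(value + 1), a scale that understates the change of low genes. The group was the only factor. A gene passed at a Benjamini-Hochberg adjusted p under 0.05. Members and lists were chosen with earlier results of these data known. Genes were named by a rule: *Kcna1*, the 10 members, in each pathway list the genes past the threshold and the 2 largest changes at a mean of at least 10, the nearest genes around *Nudcd2*, the 5 genes most like it, and markers past the threshold. *Mog*, *Cldn5* and *Pecam1* are named as defining markers at 0 or 1. Named after their values were seen were *Tubb3*, *Map2*, *Mbp*, *Dync1li2*, *Gfap*, *Aldh1l1*, *Slc4a4*, *S100b*, *C1qc*, *Tyrobp*, *Csf1r* and the *Dynlt1* copies. Sites resembling sg19, taken from the study's guide table, were searched in NCBIM37 with GENCODE vM1 in Python 3.11.15. Promoter windows are from RefSeq (GRCm38.p6).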

Additional observations from a re-analysis of the deposited data

How the results depend on the processing

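The numbers of genes past the threshold depended on nearly every choice, in the order partners, pathway lists and all genes (1, 3 and 226 as reported). They were 0, 0 and 10 with a pseudocount of 0.5. With a pseudocount of 4 they were 1, 5 and 455. They were 2, 17 and 1543 for genes with a mean of at least 1, and 3, 22 and 2289 for genes with a mean of at least 10, where fewer genes are tested. They were 2, 19 and 1721 with median-of-ratios factors, 2, 13 and 868 with upper-quartile factors, and 3, 18 and 1768 without Gm42418, a gene that held 15.3% to 20.2% of a library. They were 0, 0 and 201 without the intensity trend (84 of the reported genes kept) and 4, 22 and 2884 with a robust variance. The other causes were not tested. With the replicate number as a block they were 0, 0 and 0, with 4326 genes at an unadjusted p under 0.05. Libraries with the same number correlated in their deviations at 0.014, 0.114 and 0.154 over genes with a mean of at least 10. Those with unlike numbers ran from -0.156 to 0.099. As the values with the same number were low, the numbers were not taken to pair the libraries, although 5 of 6 libraries correlated best with their own number. Whether the libraries were paired is not known. With 1 library left out the ranges were 0 to 4, 0 to 22 and 0 to 2711, the highest without sgLacZ replicate 3 and 0 for each other library left out, by limma (at least 3332 genes at an unadjusted p under 0.05).

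The log2 fold change of *Nudcd2* stayed between -0.98 and -0.60 in all 16 settings. Of 142 values of the 9 partners in these settings, 1 turned its sign, that of *Dctn1*, which ranged from -0.0039 without sgKcna1 replicate 1 to 0.29 when 1 library was left out. Rescaling moved the median log2 fold change of genes with a mean of at least 10 from -0.06 to at most 0.05. Depth is unknown, and rounding limits *Nde1*, *Nudcd1* and *Hmmr* most.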
